A study of Mus musculus with 8 samples.

Results

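The AMPA and NMDA receptor subunits are the proteins that build both main fast glutamate receptors of excitatory synapses, and their transcripts were followed here in the hippocampus of 3 × Tg-AD mice fed with or without rosmarinic acid (RA), a plant polyphenol. The 10 genes are Gria1 to Gria4, which encode the AMPA receptor subunits, and Grin1, Grin2a to Grin2d and Grin3a, which encode NMDA receptor subunits. Members were all probe sets (groups of short probes against 1 transcript on an array) that carry one of these symbols and no other. This gave 21 of the 45037 probe sets, covering 9 of the 10 genes, out of 18193 genes named on the array. For Grin1, the subunit that every NMDA receptor contains, no probe set was named by this rule, so it was not analysed here.

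Both groups were male mice that carry the Swe allele of amyloid precursor protein, the P301L allele of tau and the M146V allele of presenilin 1, which cause amyloid and tau pathology with age, and the promoters of these transgenes were not given in the sources used here. The control group ate a normal diet and the RA group ate the same diet with 0.5% RA, both for 8 months, and hippocampal RNA was taken at 10 months of age and put on 4 arrays per group. The Methods speak both of 4 mice per group and of pooled total RNA, so p-values measure the spread between arrays, which may be partly technical. There was no non-transgenic group, so nothing here compares diseased with healthy tissue.

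AMPA receptors are tetramers of GluA1 to GluA4 and carry the bulk of the fast excitatory current. In the adult hippocampus, GluA1 and GluA2 predominate in pyramidal cells, and the GluA2 subunit, whose transcript is edited by an RNA deaminase, keeps the channel nearly closed to calcium. NMDA receptors pair the obligatory GluN1 with GluN2 or GluN3 subunits, need glycine or D-serine as well as glutamate, and let calcium in when the membrane is already depolarised, which starts synaptic plasticity. GluN2A and GluN2B are the main hippocampal partners, GluN2C and GluN2D are more typical of other regions and of interneurons, and GluN3A lowers the calcium flow of the receptors that hold it.

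Values are log2 summaries by FARMS, a method that draws a probe set to a constant when its probes share no varying signal. A probe set was called measured when its SD over the 8 arrays was above 0.01. Of the 21 probe sets, 11 were measured, with SDs of 0.09 or more, while the other 10 had SDs of 0.0025 or less, so none lay near the limit. Over the whole array 8.34% of probe sets were measured. The measured ones were both of Gria1, 2 of 3 for Gria2, 1 of 2 for Gria3, 2 of 3 for Gria4, the single one of Grin2a, 1 of 2 for Grin2d and 2 of 3 for Grin3a. All 4 probe sets of Grin2b and the single one of Grin2c were nearly constant, as were 1453098_at of Gria2, 1420563_at of Gria3, 1421351_at of Gria4, 1421393_at of Grin2d and 1458378_at of Grin3a. The largest difference between the groups among these 10 was 0.0027 on the log2 scale, for Grin2b 1442370_at, whose values were near 9.35 in both groups. For Grin2b and Grin2c, then, a diet difference could not be measured on these arrays, which is not the same as no difference.

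The diet groups were compared by the rank product, which ranks the 16 possible RA minus control differences and calls a probe set when the estimated proportion of false positives is under 0.05, and by limma, which gives the standard error (SE) and a p-value adjusted over all probe sets. A single member probe set was called, 1434146_at of Gria2, which was lower in the RA group. By the rank product 0.575% of all probe sets and 6.89% of the measured ones were called lower, and 0.897% and 10.8% were called higher, so 1 lower call among 11 measured members is close to the share on the array as a whole. By limma, 0 members had an adjusted p under 0.05, 1 had an unadjusted p under 0.05 (9.66% of all measured probe sets did), and the lowest adjusted p was 0.358 among members and 0.252 over the array. The median log2 fold change of the 11 was -0.0072, with 7 lower and 4 higher means in the RA group, beside a median of 0.069 and 73.1% higher means over all measured probe sets.

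**Figure D1:**
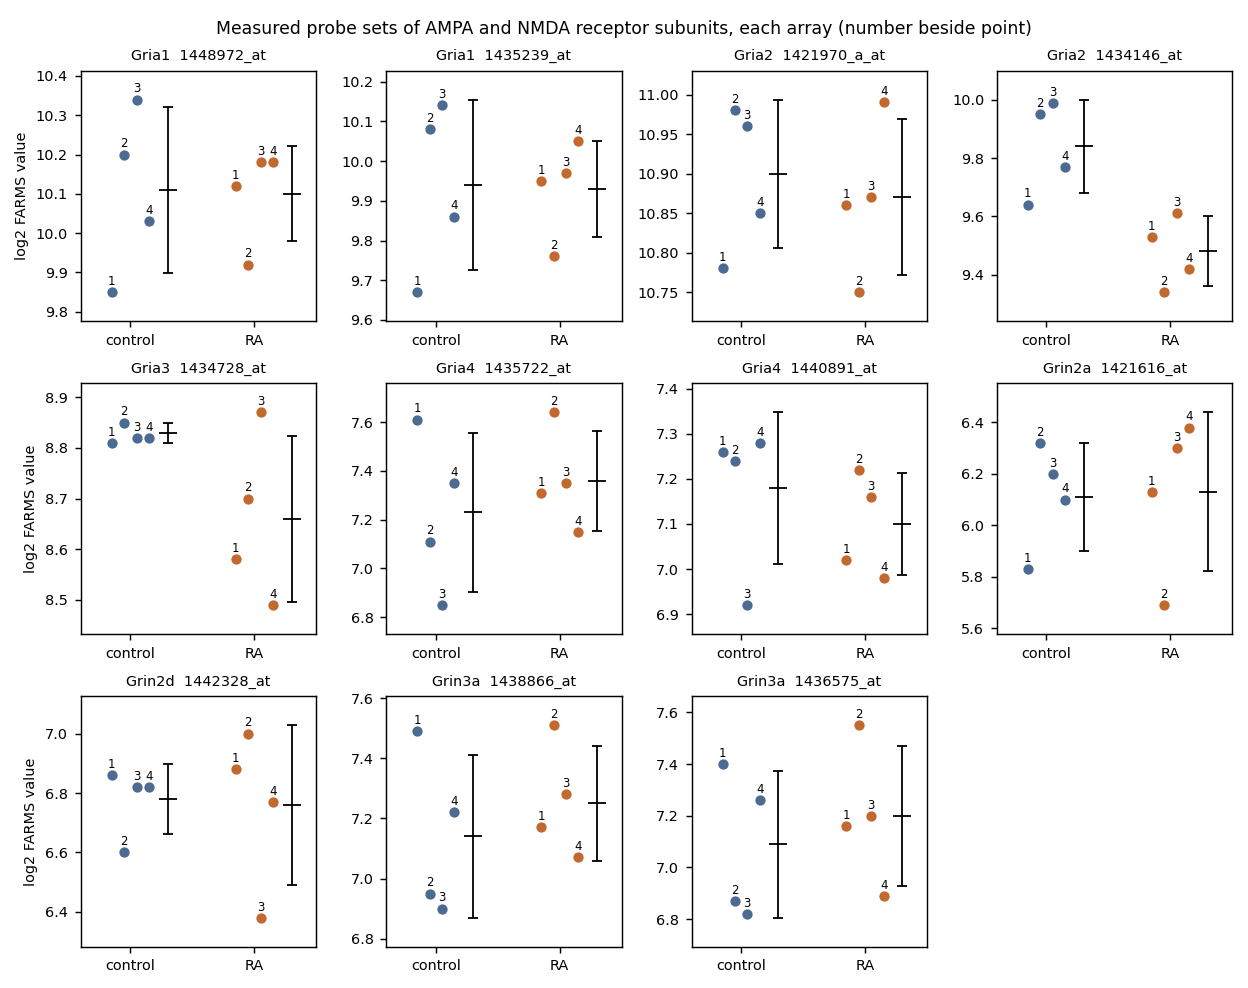
Deposited log2 value of the 11 measured probe sets on each of the 8 arrays (the number beside a point is the array's number), with the mean and SD of each group of 4 as a bar at its right. In Gria2 1434146_at all 4 RA arrays lie below all 4 control arrays, and in the other 10 the groups overlap. Over all measured probe sets, the RA values lay wholly below the control values in 2.87% and wholly above in 2.71%.

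Gria2 encodes GluA2, the subunit that limits calcium entry through AMPA receptors. Its probe set 1434146_at read 9.64, 9.95, 9.99 and 9.77 on control arrays 1 to 4 and 9.53, 9.34, 9.61 and 9.42 on RA arrays 1 to 4. Every RA value was below every control value, a separation in this direction that 2.87% of measured probe sets showed. The means were 9.84 ± 0.161 and 9.48 ± 0.12 (SD, n = 4 each), a log2 fold change of -0.36 (limma SE 0.0964, 95% confidence interval -0.59 to -0.13, adjusted p = 0.358), or 0.778 times the control level. The rank product put the estimated proportion of false positives at 0.00133. Leaving out each array in turn gave -0.43 to -0.31 and kept the call each time, but the call was lost when the rank product ran on measured probe sets alone, where the estimate was 0.397. All 663 rank product calls on the array fell on measured probe sets, and on these alone 4 higher and 17 lower calls were left. The estimate of 0.00133 thus depends on ranking this probe set among nearly constant ones.

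The second measured probe set of Gria2, 1421970_a_at, did not show this difference. It read 10.78, 10.98, 10.96 and 10.85 in the control group and 10.86, 10.75, 10.87 and 10.99 in the RA group, with overlapping groups and a log2 fold change of -0.026 (SE 0.0653, interval -0.18 to 0.13, adjusted p = 0.914). That interval leaves out the value of -0.36 found at the other probe set, but it overlaps the interval there, -0.59 to -0.13. Within each array the first probe set minus the second came to -1.14, -1.03, -0.98 and -1.08 in the control group and to -1.33, -1.41, -1.26 and -1.57 in the RA group. Again the groups did not overlap. The mean within-array difference was -1.06 ± 0.0712 in control and -1.39 ± 0.131 in RA arrays (SD, n = 4 each), a change of -0.34 on the log2 scale (SE 0.0736). In limma over all 913 pairs of measured probe sets of the same gene, a test added after the values were seen, its adjusted p was 0.0864, and 0.0667 to 0.275 when the processing was varied, so the disagreement did not pass 0.05. Such a gap between the groups was found in 5.7% of the pairs in this direction and in 9.31% in either, and 1 pair, 0.11%, passed by limma. The 2 probe sets correlated at r = 0.5 over the 8 arrays, against 0.98 for those of Gria1 and 0.97 for those of Grin3a. Which parts of the Gria2 transcripts each probe set matches was not analysed here, and the diet difference of Gria2 rests on 1 of its 2 measured probe sets.

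**Figure D2:**
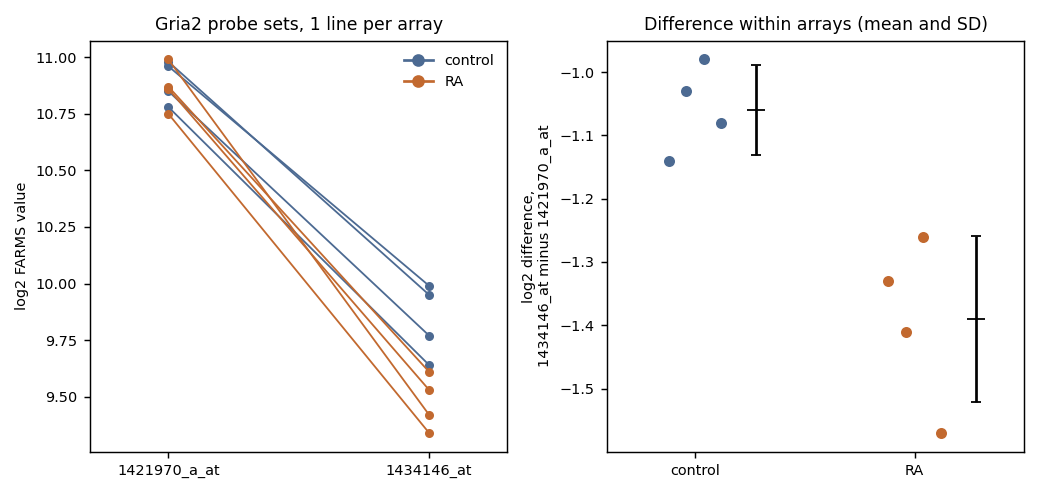
Left, log2 values of the 2 measured Gria2 probe sets, each line joining 1 array (levels of different probe sets are not comparable, only their change between groups is). Right, the difference of the 2 within each array, with mean and SD of 4 arrays: control arrays lie at -1.14 to -0.98 and RA arrays at -1.57 to -1.26.

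Genes of which several probe sets were measured often had a call on some and not on others. Of 77 such genes with at least 1 probe set called lower, 14.3% had all of them called lower, and of 99 with at least 1 called higher, 27.3% had all of them called higher. Gria2 was thus like most of these genes in having a call on only part of its probe sets.

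Gria1 encodes GluA1, the subunit added to synapses during long-term potentiation. Probe set 1448972_at read 9.85, 10.2, 10.34 and 10.03 in control and 10.12, 9.92, 10.18 and 10.18 in RA arrays, and the RA values lay within the range of the control values. The log2 fold change was -0.0072 (SE 0.117, interval -0.29 to 0.27). The second probe set, 1435239_at, gave -0.0058 (SE 0.118, interval -0.29 to 0.28), from values of 9.67 to 10.14 in control and 9.76 to 10.05 in RA arrays. Neither was called, the estimate at 1448972_at took either sign with single arrays left out (-0.093 to 0.07), and both intervals leave room for a change of up to -0.29 or 0.27 on the log2 scale.

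Gria3 encodes GluA3, which forms receptors together with GluA2. Its measured probe set 1434728_at read 8.81, 8.85, 8.82 and 8.82 in control arrays, a narrow range, and 8.58, 8.7, 8.87 and 8.49 in RA arrays. Of the 4 RA values, 3 were below all control values and RA array 3 was above them. The SD was 0.0197 in the control and 0.164 in the RA group, and the log2 fold change was -0.17 (SE 0.0794, interval -0.36 to 0.025, adjusted p = 0.535), with no call. Without RA array 3 it was -0.24 and was called lower, and without RA array 4, the lowest, it was -0.11 and was not called, so both the size and the call depend on single RA arrays.

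Gria4 encodes GluA4, a subunit found mainly in interneurons of the adult hippocampus. Probe set 1435722_at read 7.61, 7.11, 6.85 and 7.35 in control and 7.31, 7.64, 7.35 and 7.15 in RA arrays, with a log2 fold change of 0.13 (SE 0.184, interval -0.31 to 0.57, adjusted p = 0.833). Probe set 1440891_at read 7.26, 7.24, 6.92 and 7.28 in control and 7.02, 7.22, 7.16 and 6.98 in RA arrays, with a log2 fold change of -0.078 (SE 0.0973, interval -0.31 to 0.16, adjusted p = 0.809). The groups overlapped in both, and the 2 estimates had opposite signs, a disagreement that did not pass the test over all pairs of probe sets (within-array difference changed by -0.21, SE 0.108, adjusted p = 0.453). At 1435722_at single arrays moved the estimate both ways: it was 0.26 and called higher without control array 1, the highest control, 0.2 without RA array 4, 0.039 without RA array 2 and 0.0046 without control array 3. At 1440891_at it was -0.16 without control array 3 and -0.041 at its nearest to 0, without RA array 4, with no call.

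The NMDA receptor genes with measured probe sets were Grin2a, Grin2d and Grin3a, and 0 of their 4 probe sets were called. Grin2a, for GluN2A, read 5.83, 6.32, 6.2 and 6.1 in control and 6.13, 5.69, 6.3 and 6.38 in RA arrays at 1421616_at. The groups overlapped almost entirely, and the log2 fold change was 0.014 (SE 0.179, interval -0.42 to 0.44). Grin2d, for GluN2D, read 6.86, 6.6, 6.82 and 6.82 in control and 6.88, 7, 6.38 and 6.77 in RA arrays at 1442328_at, a log2 fold change of -0.016 (SE 0.14, interval -0.35 to 0.32). RA arrays held both the highest and the lowest Grin2d value. With single arrays left out the estimates took either sign, from -0.081 to 0.16 for Grin2a and from -0.097 to 0.11 for Grin2d, without a call.

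Grin3a, for GluN3A, read 7.49, 6.95, 6.9 and 7.22 in control and 7.17, 7.51, 7.28 and 7.07 in RA arrays at 1438866_at, a log2 fold change of 0.12 (SE 0.159, interval -0.26 to 0.5, adjusted p = 0.828). Its other measured probe set, 1436575_at, read 7.4, 6.87, 6.82 and 7.26 in control and 7.16, 7.55, 7.2 and 6.89 in RA arrays, a log2 fold change of 0.11 (SE 0.189, interval -0.34 to 0.56, adjusted p = 0.87). Both estimates lay within their errors of 0, with overlapping groups. Without control array 1, 1438866_at gave 0.23 and was called higher, but it gave 0.055 without control array 2, 0.036 without control array 3 and 0.031 without RA array 2. At 1436575_at the estimate was 0.21 without control array 1 or RA array 4, 0.036 without control array 2, 0.02 without control array 3 and -0.0083 without RA array 2, with no call.

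**Figure D3:**
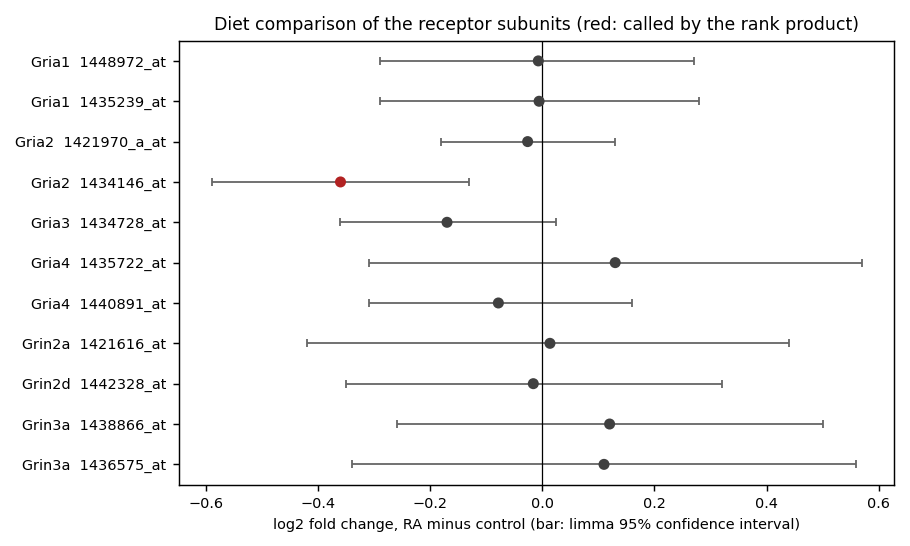
Log2 fold change (RA minus control) of the 11 measured probe sets with the limma 95% confidence interval, red where the rank product made a call. Gria2 1434146_at, at -0.36, is the single one whose interval does not reach 0, while those of Gria4 1435722_at, Grin2a and Grin3a are the widest.

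What most of these probe sets shared was an order of the arrays that cut across the diet. Control array 1, RA array 2 and control array 4 gave the 3 lowest values at both Gria1 probe sets, at Gria2 1421970_a_at and at Grin2a. Control array 1 and RA array 2 gave the 2 highest values at Gria4 1435722_at and at both Grin3a probe sets, where control arrays 3 and 2 and RA array 4 gave the 3 lowest. Gria3 did not follow this order (r with Gria1 1448972_at of 0.02). Grin2d followed it in part, at r = -0.48 with Gria1 1448972_at and -0.69 with Grin2a. The called Gria2 probe set correlated with Gria1 at 0.53 over all 8 arrays and at 0.9 once the mean of each diet group was removed.

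The following correlations are descriptions over the 8 arrays, which share their hybridisation and processing. Gria1 1448972_at correlated with Gria4 1435722_at at r = -0.94 (Spearman's rho -0.83, and r = -0.88 without control array 1 and RA array 2). Its r with Grin3a 1438866_at was -0.91 (rho -0.83, r = -0.74 without those 2 arrays), with Gria2 1421970_a_at 0.86 (rho 0.81, r = 0.66) and with Grin2a 0.83 (rho 0.76, r = 0.41), so the relation with Grin2a rests largely on those 2 arrays. Gria4 1435722_at and Grin3a 1438866_at ranked all 8 arrays alike (r = 0.97, rho 1.0). Gria1, Gria2 1421970_a_at and Grin2a thus ran opposite to Gria4 1435722_at and Grin3a from array to array in both diet groups. For Grin2a with Grin3a this rests largely on control array 1 and RA array 2. Their r was -0.81 at 1438866_at and -0.86 at 1436575_at, but -0.25 and -0.57 without those 2 arrays. Grin2a with Gria4 1435722_at gave -0.77, and -0.9 without control array 3 and RA array 2. The other measured Gria4 probe set, 1440891_at, kept to this order less closely (r = -0.69 with Gria1 1448972_at and -0.46 with Grin2a). This order was widespread on the array: of the 3757 other measured probe sets, 16.9% correlated with Gria1 1448972_at above 0.8 and 18.4% below -0.8, and for Gria4 1435722_at the shares were 24.9% and 14.1%. For the called Gria2 probe set they were 5.38% and 5.78%.

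**Figure D4:**
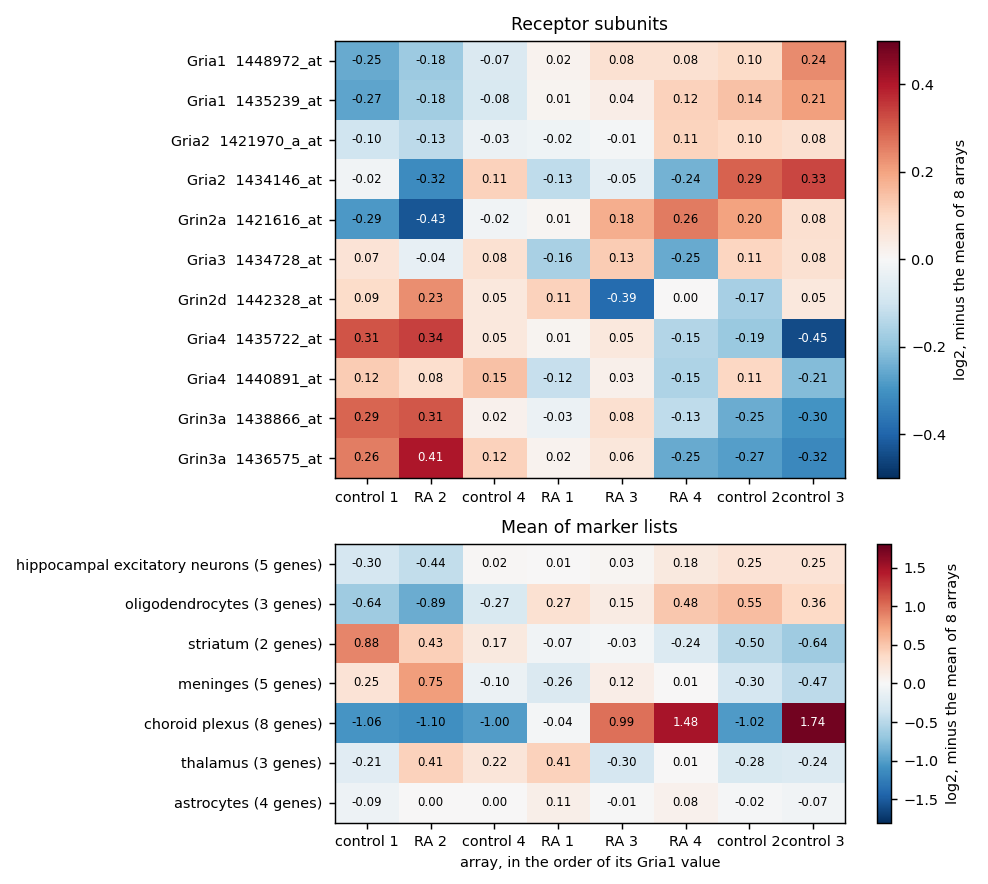
Log2 value minus the mean of the 8 arrays, for the 11 measured receptor probe sets (top) and for the mean of 7 marker lists (bottom), with arrays in the order of their Gria1 1448972_at value. From left to right Gria1, Gria2 1421970_a_at and the neuron list go from below to above their means and Gria4 1435722_at, Grin3a and the striatum list go the other way, with control and RA arrays interleaved.

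The means of several lists of cell type and neighbouring region markers moved along this order too. The list of hippocampal excitatory neurons, with 5 of 7 genes measured (Slc17a7 and Nrgn were nearly constant), lay, relative to its mean over all arrays, at -0.3 on control array 1, at -0.44 on RA array 2 and at 0.25 on control arrays 2 and 3. It ranged from 8.52 to 9.07 in control and from 8.38 to 9 in RA arrays as a mean log2 level, and correlated with Gria1 at 0.9, with Grin2a at 0.93, with Gria4 at -0.93 and with Grin3a at -0.96 (the probe sets used for all marker lists are 1448972_at for Gria1, 1435722_at for Gria4 and 1438866_at for Grin3a, and r is a description over 8 arrays). The highest gene of the neuron list, Camk2a, departed from the list mean on control array 2 and RA array 2. It read 10.88 and 11.11 there, within 10.87 to 11.23 over all arrays. Its log2 fold change was 0.0935, without a call. Oligodendrocyte markers (3 of 4 measured, led by Mbp, a myelin protein) ranged from 8.41 to 9.59 in control and 8.16 to 9.52 in RA arrays and correlated with Gria1 at 0.88 and with Grin2a at 0.94. Markers of the striatum ran the other way, at r = -0.96 with Gria1, 0.93 with Gria4 and 0.94 with Grin3a, but only Drd1 and Penk of 7 were measured, and the defining Drd2, Ppp1r1b and Rgs9 were nearly constant. Their mean level was 6.75 to 8.27 in control and 7.15 to 7.81 in RA arrays, with Penk, an opioid peptide precursor, at 9.61 on control array 1 and 7.43 on control array 2. The meningeal and microglial lists ran this way too, at -0.76 and -0.7 with Gria1 and 0.88 and 0.75 with Grin3a. The thalamic list did so more weakly (-0.4 and 0.35). Astrocyte and interneuron lists followed the order little, at 0.15 and 0.29 with Gria1 and -0.04 and -0.09 with Gria4, though interneurons reached 0.63 with Grin2a. The part of tissue composition in the receptor values was not tested, and in whole tissue fewer cells of a type and less RNA per cell cannot be told apart.

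Between the diets, calls among the marker lists were read beside 12.4% higher and 8.05% lower calls over all genes with a measured probe set. All 8 choroid plexus genes were called higher. Ttr, their most abundant, read 8.54, 8.57, 13.39 and 8.9 in control and 12.05, 7.67, 13.12 and 13.26 in RA arrays. It was thus high on control array 3 and on RA arrays 1, 3 and 4. The list's r with the called Gria2 probe set was 0.07. With other members the list's r was larger: 0.75 with Gria1, 0.63 with Grin2a, -0.67 with Gria4 and -0.54 with Grin3a. Of the 5 measured meningeal genes 4 were called higher, as were 3 of 3 thalamic and 3 of 4 astrocyte genes. These counts depend on single arrays: with an RA array left out, 2 to 7 choroid plexus, 0 to 2 meningeal, 0 to 1 thalamic and 0 astrocyte genes were called higher, and without control array 2 the counts were 6, 2, 2 and 1. Astrocyte genes also came to 1 without control array 3. Of the neuron and oligodendrocyte lists 1 gene each was called lower, and of the interneuron (3 measured, Sst highest), microglia (3 measured, Csf1r highest) and striatum lists 0. Single arrays moved these counts as well. Without control array 3 the neuron and oligodendrocyte lists each had 1 gene called higher and 0 lower. Without control array 1 the neuron list had 3 called lower, and the interneuron, microglia and striatum lists had 2, 3 and 2 called higher. The excitatory neuron list correlated at 0.62 with the called Gria2 probe set and differed by -0.11 between the diets (RA minus control, log2 scale), beside -0.36 for that probe set. The meningeal list correlated with that probe set at -0.76, the microglial list at -0.69 and the thalamic list at -0.6. The part of these in its difference was not tested. Among the manufacturer's RNA controls, the 5′ probe set of beta-actin, a check of RNA integrity, ranged from 11.82 to 12.11 in control and from 11.83 to 12.13 in RA arrays and correlated with Gria1 at 0.85 and with the called Gria2 probe set at 0.44. The middle probe set of beta-actin correlated with them at 0.91 and 0.55. The 3′ probe set of beta-actin and those of Gapdh were nearly constant.

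Single genes with the most similar pattern were found for the 3 members with the largest SD. Grin3a 1436575_at was closest to Btbd11 (r = 0.994), Gap43, a growth cone protein (0.993), and Hes5, a Notch target (0.992). Gria4 1435722_at was closest to Kazn (0.995), AI504432 (0.993) and Prkar1b, a regulatory subunit of protein kinase A (0.993), and Grin2a was closest to Arhgap23 (0.982), the potassium channel gene Kcna1 (0.979) and Atp5pb, of the ATP synthase (0.979), each over 8 arrays. None of these 9 was called between the diets. The called Gria2 probe set, added to this search after its values were seen, was closest to Mal2, a membrane trafficking protein (r = 0.994, log2 fold change -0.46), Pls3, an actin-bundling protein (0.992, -0.62), and Gnaq, the G protein subunit downstream of group I metabotropic glutamate receptors (0.99, -0.47), and all 3 were called lower. As they were chosen for likeness to a called probe set over the same arrays, their calls are not a separate result.

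The upstream sequences of Gria2, the called member, and of Gria4 are shown for reading beside each other. Gria4 1435722_at ran opposite to the other measured Gria2 probe set across arrays. Both are the 250 bases before the annotated start in RefSeq (assembly GRCm38.p6), 5′ to 3′ on the minus strand, at chr3:80802836-80803085 for Gria2 and chr9:4796235-4796484 for Gria4. Promoters of 5 of the 10 genes were in the tables used.
Gria2: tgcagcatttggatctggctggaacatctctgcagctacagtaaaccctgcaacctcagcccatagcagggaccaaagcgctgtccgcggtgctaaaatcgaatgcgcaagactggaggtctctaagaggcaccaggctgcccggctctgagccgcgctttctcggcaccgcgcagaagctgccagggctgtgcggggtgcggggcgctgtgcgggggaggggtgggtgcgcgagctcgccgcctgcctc
Gria4: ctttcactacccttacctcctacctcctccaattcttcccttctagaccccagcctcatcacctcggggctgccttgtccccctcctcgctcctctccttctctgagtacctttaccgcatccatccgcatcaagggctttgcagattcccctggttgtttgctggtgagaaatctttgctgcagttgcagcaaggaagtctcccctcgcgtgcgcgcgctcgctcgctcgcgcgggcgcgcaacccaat
Capitals would mark a GC box (GGGCGG), a cAMP response element (TGACGTCA) or a TATA box (TATAAA) on either strand. Neither sequence holds one, while 32.7%, 1.55% and 12.4% of 32851 mouse promoter windows of this length do, and G and C made up 64.8% of the Gria2 and 58.8% of the Gria4 window. This says only that these letters are not in these windows.

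Other genes of glutamate signalling were read from lists of 59 genes, of which 52 had a probe set and 27 a measured one. By the rank product 5 genes were called higher, 4 lower and 18 were not called, beside 12.4% higher and 8.05% lower among all 2496 genes with a measured probe set, and limma called 0 of them. With the array number as a block 1 gene, Nptx1, was called, with arrays left out 2 to 12 genes were called, and restricted to measured probe sets none was.

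AMPA receptor auxiliary and trafficking proteins had 12 of 22 genes measured, of which 1 was called higher and 3 lower, with a median log2 fold change of 0.018 over 15 probe sets. Nptx1, a secreted pentraxin that gathers AMPA receptors at synapses, read 9.79, 10, 10.1 and 9.8 in control and 9.58, 9.36, 9.64 and 9.78 in RA arrays at 1434877_at. As at Gria2 1434146_at, the RA values were all below the control values, which was so in 2.87% of measured probe sets. Here the gap was narrow, from 9.78 on RA array 4 to 9.79 on control array 1. The log2 fold change at this probe set was -0.33 (SE 0.113, adjusted p = 0.427). It was the 1 pathway probe set whose call held without each of the 8 arrays. Its other probe set, 1422130_at, gave -0.13 (SE 0.176) with overlapping groups and no call.

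Frrs1l, needed for assembling AMPA receptors in the endoplasmic reticulum, was called lower at 1437640_at (8.14 to 8.58 in RA, 8.26 to 8.88 in control arrays, log2 fold change -0.26, SE 0.163). Shisa6, an auxiliary subunit that slows desensitisation, was called lower at 1455512_at (-0.24, SE 0.287). Both had a second measured probe set without a call, at 0.0058 and -0.037. Without control array 2, control array 3, control array 4 or RA array 2 both calls were lost, and over the arrays left out the Shisa6 value ran from -0.44 to -0.06 and that of Frrs1l from -0.39 to -0.18. Cacng5, an auxiliary subunit of the TARP family, was called higher at 1434785_at, with 5.94 to 6.23 in control arrays and 6.59, 6.54, 5.99 and 6.49 in RA arrays (0.29, SE 0.15). Its call was lost without control array 2 or RA array 1, 2 or 4, with 0.23 to 0.43 over the arrays left out.

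Of the glutamate supply genes, 5 of 6 were measured, 3 called higher and 1 lower, with a median of 0.18 over 8 probe sets. Slc17a6, the vesicular transporter VGLUT2 that is typical of thalamic neurons, was higher at both probe sets by 0.37 (SE 0.243) and 0.38 (SE 0.29). At 1428379_at control array 3, at 6.46, was the lowest of all arrays, the other controls read 7.17 to 7.74 and the RA arrays 7.35 to 7.96. Without control array 3 that value was 0.14 and the call was lost, as it was without any RA array.

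Glul, the astrocytic enzyme that turns glutamate into glutamine, read 9.29, 9.62, 9.36 and 9.48 in control and 9.59, 9.68, 9.74 and 9.65 in RA arrays, a log2 fold change of 0.23 (SE 0.0763, adjusted p = 0.418). Slc1a3, the astrocytic uptake carrier GLAST, was higher by 0.22 (SE 0.0923, adjusted p = 0.491). Slc1a3 is also one of the astrocyte markers given above, of which 3 of 4 were called higher. The Glul call was lost without any RA array (0.18 to 0.29 over all arrays left out), and the Slc1a3 call without any RA array, control array 2 or control array 3 (0.15 to 0.28). Slc1a1, the neuronal uptake carrier, was called lower at 1425415_a_at (-0.24, SE 0.126), though not at 1448299_at (-0.026, SE 0.092), and without control array 2, 3 or 4 the first call was lost (-0.35 to -0.18).

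**Figure D5:**
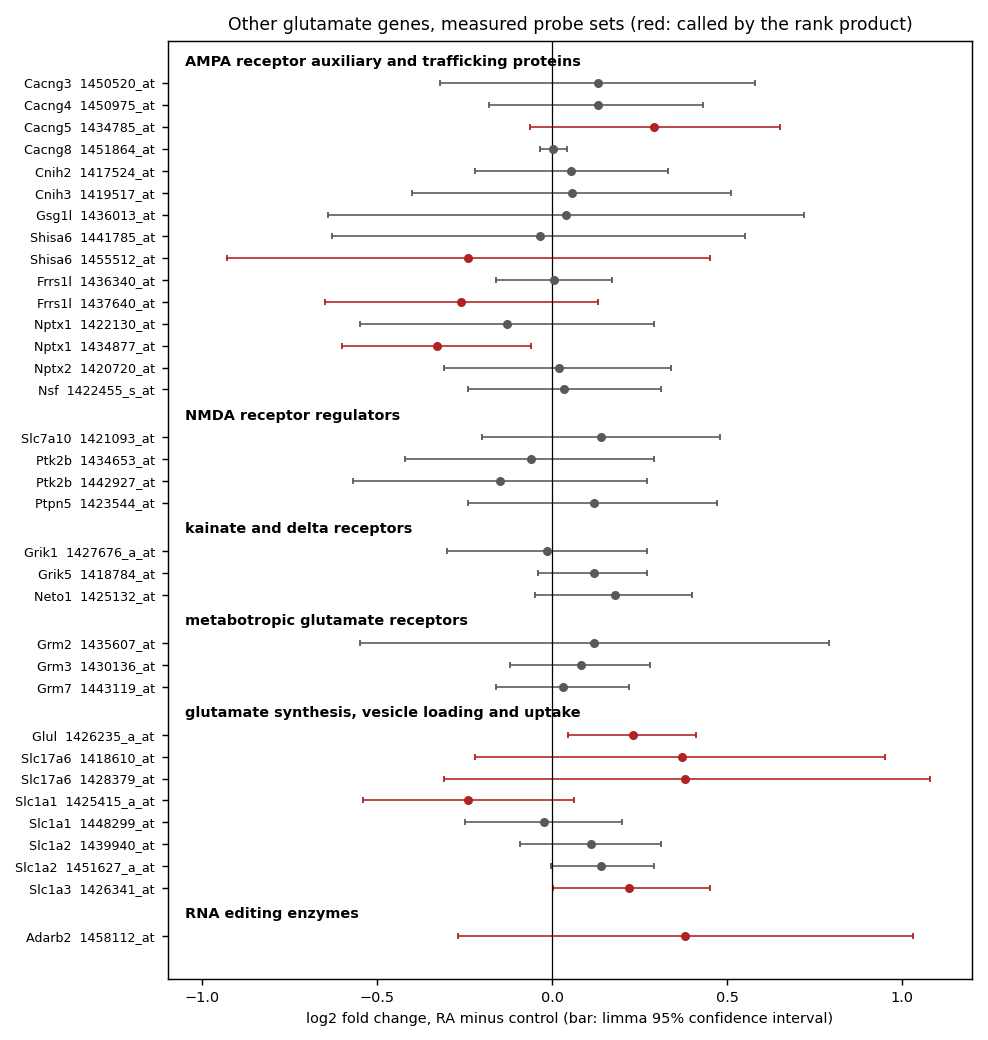
Log2 fold change (RA minus control) of the 34 measured probe sets of the glutamate gene lists with limma 95% confidence intervals, red where the rank product made a call. Both Slc17a6 probe sets, Adarb2, Cacng5, Glul and Slc1a3 are the red points above 0, and the calls below 0 are Nptx1, Frrs1l, Shisa6 and Slc1a1, each on 1 of 2 probe sets.

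The NMDA receptor regulators, the kainate and delta receptors and the metabotropic receptors had 3 measured genes each and 0 calls. Ptk2b, a calcium-activated kinase that acts on NMDA receptors, gave -0.15 (SE 0.176) and -0.062 (SE 0.148), and Ptpn5, a phosphatase that opposes it, gave 0.12 (SE 0.149). Neto1, an auxiliary subunit of kainate receptors, gave 0.18 (SE 0.0942), and Grik1, a kainate receptor subunit, gave -0.015 (SE 0.117). Grm2 and Grm3, presynaptic and glial metabotropic receptors, gave 0.12 (SE 0.281) and 0.083 (SE 0.0833). Of the RNA deaminases that edit receptor transcripts such as that of Gria2, only Adarb2, which has no known editing activity of its own, was measured. It read 6.28, 6.4, 7.23 and 7.28 in control and 7.08, 6.95, 7.4 and 7.26 in RA arrays, and was called higher by 0.38 (SE 0.271). The first pair of control arrays was low and the other pair lay within the RA range, and the call was lost without control array 1 or 2 or any RA array (0.21 to 0.54).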

How the data were processed

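Hippocampal RNA of 4 control and 4 RA samples was hybridised to 8 Affymetrix mouse genome arrays, and groups and array numbers follow the labels. The authors summarised the scanner signals with FARMS, and the deposited values are on the log2 scale. How arrays were scaled to each other under FARMS is not given here. Array medians were 5.829 to 5.831 in control and 5.833 to 5.835 in RA arrays, and no further scaling was applied. The number of arrays limits the precision.

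Gene names came from the platform annotation, updated by gene number (34741), by accession (1) or kept as listed (203). Probe sets with several genes (932) or without a gene (9160) entered the tests unnamed. The 64 manufacturer's controls were not tested. The rank product named in the Methods was run on all 16 differences with 100 permutations within arrays, at a proportion of false positives of 0.05 in each direction. limma 3.58.1 in R 4.3.3 gave log2 fold changes, SEs, 95% intervals and Benjamini-Hochberg adjusted p-values over 45037 probe sets, and over 913 pairs of measured probe sets of 655 genes. How either method behaves when many probe sets share an order of the arrays was not tested. Other steps used Python 3.11.15, NumPy 2.4.6, SciPy 1.17.1, pandas 2.3.3 and matplotlib 3.10.9.

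The members and the gene lists were chosen with earlier results of these data known. Named were all members, up to 4 called genes of each pathway list by absolute log2 fold change or else the 2 with the largest SD, the highest gene of each marker list, and the 3 genes most like the 3 members with the largest SD. Genes named beyond this rule are Mal2, Pls3 and Gnaq and the marker genes given as not measured, with Drd1. Of the marker lists, the remaining highest genes were Gja1, Ptgds and Rora. Alternatives were quantile normalization, subtraction of array medians, filters on mean and SD, a replicate block, each array left out, limma instead of the rank product, robust limma with a trend, a threshold of 0.01 and other permutations.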

Additional observations from a re-analysis of the deposited data

Results flagged for a closer look

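Of 22 groups of 4 arrays (11 measured member probe sets in 2 diet groups), 1 held an array that stood apart by Dixon's criterion, close to the rate of about 1 in 20 that chance gives. At Gria4 1440891_at control array 3 read 6.92 while the other control arrays read 7.24 to 7.28, so the gap was 0.88 of the group's range. Control array 3 was also the lowest of all arrays at the other measured Gria4 probe set and at both of Grin3a.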

How the results depend on the processing

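Quantile normalization, array medians subtracted, the filter on low means, the replicate block, the threshold of 0.01 and 4 other sets of permutations kept the count of 1 member called by the rank product. It was 0 with measured probe sets alone and 0 with limma in its place, and 1 to 3 with an array left out (3 without control array 1, 2 without RA array 3). limma called 0 members, also with each array left out, but 7 after quantile normalization and 11 after array medians were subtracted. Both scalings shift nearly constant probe sets by a tiny amount in the same direction, so 6 and 10 of these calls are nearly constant ones and 28543 and 41443 probe sets were called in all. The remaining call was Gria2 1434146_at each time, beside 251 and 350 calls among all 3758 measured probe sets. Its log2 fold change was -0.37 under both scalings and -0.36 without them, while its adjusted p in limma went from 0.358 to 0.0167 and 0.00736. The adjustment runs over all probe sets and eases when so many nearly constant ones are called. This limma call is therefore not separate evidence for a diet difference. The genes of the glutamate lists called by the rank product numbered 9, but 2 after the filter on low means, 0 with measured probe sets alone, 1 with the replicate block, 0 with limma and 2 to 12 with an array left out. Of the members' fold changes under the alternatives none reversed a call. The block uses array numbers shared by the groups, but these did not pair the arrays: deviations of the same-numbered arrays correlated at -0.12, -0.33, 0.45 and -0.39, and the block left the number of members called at 1. Over all probe sets the block gave 58 higher and 211 lower calls in place of 404 and 259, measured probe sets alone gave 4 and 17, the filter on low means 50 and 188, and leaving out any RA array 18 to 44 higher calls. Control arrays moved these counts too, to 966 higher without control array 1, 227 higher and 129 lower without control array 2, 148 lower without control array 3 and 162 lower without control array 4. The causes were not tested.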
